A study of Mus musculus with 9 samples.

Results

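Late culture of 1 organoid line was compared with earlier culture of the same line: 3 RNA-seq libraries from passage 10 were set against 3 from passage 5, out of 9 in the series. The choice followed the passage given in the sample labels, with 1 library of each group on either side, and used no measured value. Organoids are small epithelial structures grown in gel from bile duct cells, and at each passage they are broken up and replated. The line came from a single male mouse of mixed background, genotype Axin2CreERT2+/-; R26-LSL-tdTom+/-. This genotype puts a tamoxifen-activated Cre recombinase under control of the Wnt target gene Axin2, so that tdTomato fluorescence is switched on for good in cells that express Axin2 while the drug is present. All groups had expansion culture for 2 to 4 days and differentiation for 11 days, and all received 3 uM dexamethasone, a synthetic glucocorticoid, with 500 nM 4-hydroxytamoxifen for the last 24 h. The untreated group held tdTomato-negative cells of organoids that did not receive R-spondin 1 (Rspo1), a secreted amplifier of Wnt signals. The Rspo1-negative and Rspo1-positive groups held the tdTomato-negative and tdTomato-positive cells of organoids given Rspo1 at 100 ng/ml in those 24 h. Organoids were dissociated in TrypLE for 7 minutes and sorted.

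Bile ducts are lined by cholangiocytes, which modify bile and, in culture, can be expanded as organoids under Wnt stimulation and then differentiated. The p53 protein, encoded by Trp53, is a transcription factor that halts division or triggers cell death after DNA damage and other stress, and many of its direct targets serve as readouts of its activity. Low oxygen stabilises the HIF transcription factors, which switch on glycolytic and related genes, and low sterol activates SREBP2, which switches on cholesterol synthesis.

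At passage 10, 18 of 30 tested genes of the p53 response and senescence list, 16 of 32 glycolysis and hypoxia genes and 9 of 26 genes of the heat shock and unfolded protein list were lower than at passage 5. The heat shock and unfolded protein list was mixed, with 3 genes higher and a median log2 fold change of 0.11. Of 25 cholesterol genes, 11 were higher. Over all genes, of 17011 genes tested by edgeR's quasi-likelihood test with group as a term, 1543 passed an adjusted p of 0.05 (9.07% of those tested). Of these, 777 were higher at passage 10 (4.57%) and 766 were lower (4.5%). A difference of 2-fold or more was reached by 304 of the higher and 289 of the lower genes. All but 1 of the 1543, Hist2h2bb, moved in the same direction in the 3 groups, and for 1024 the 3 libraries of passage 10 lay wholly outside the range of the 3 of passage 5. Over all 17011 tested genes, 9574 moved in 1 direction in the 3 groups and 2848 had no overlap. The number of calls depended on single libraries: it was 525 without the untreated library of passage 5, 563 without that of passage 10, 405 and 702 without the Rspo1-negative libraries of passages 5 and 10, and 641 and 693 without the Rspo1-positive ones. Without the untreated library of passage 6, which stands on neither side of the comparison, it was 3594. With a group's libraries left out, 1169 genes were called without the untreated group, 370 without the Rspo1-negative group and 318 without the Rspo1-positive group; these 3 settings were chosen after the data were seen.

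**Figure D1:**
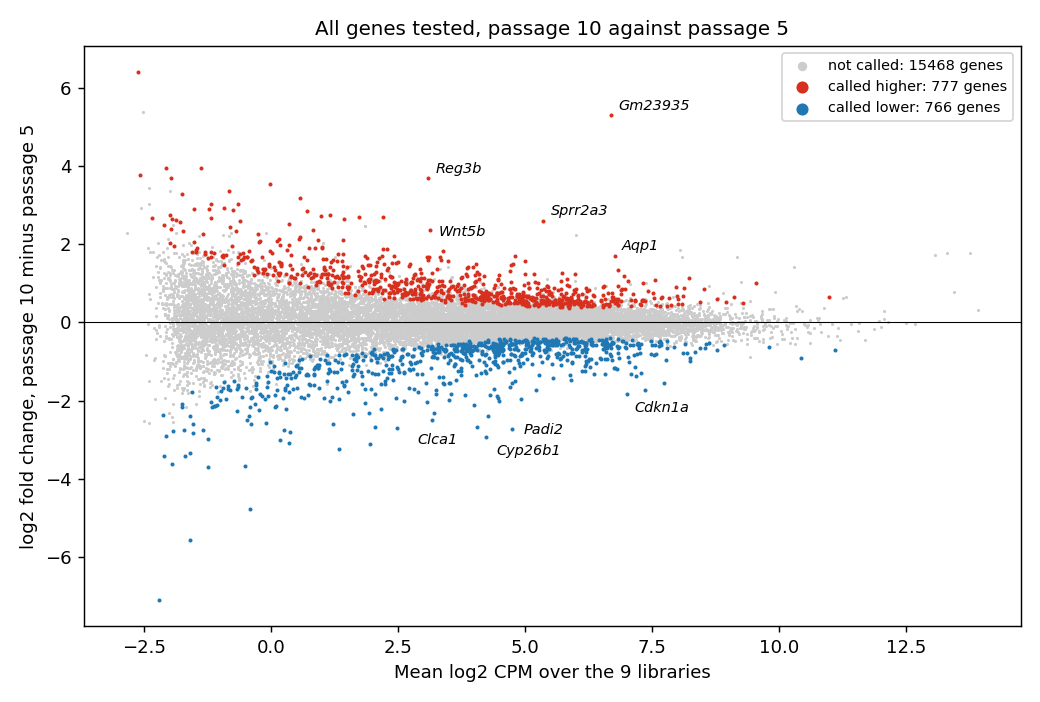
Each point is 1 of the 17011 genes tested, with its mean log2 CPM over the 9 libraries on the x axis and the log2 fold change of passage 10 against passage 5 on the y axis. The 777 genes called higher (red) and the 766 called lower (blue) are about equal in number, and all other genes are grey.

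No gene that passed the filter on low counts was called for a change with passage number that differed between the groups. The edgeR test of group by passage called 0 of 17011 genes (0%), with 91 genes at an unadjusted p under 0.05; without the filter on low counts it called 10. With 1 library per group and passage this test had 3 residual degrees of freedom. Across the 17011 genes, the differences between passages 10 and 5 had a Pearson r of 0.58 between the untreated and Rspo1-negative groups, 0.60 between untreated and Rspo1-positive, and 0.52 between the Rspo1 groups. Genes are not independent replicates, and the 2 Rspo1 groups came from the same treatment, so these values are descriptions.

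Total counts per library ran from 23423979 to 37351448, and 22021 to 24578 genes had a count. Reads of the nuclear ribosomal RNA locus made up 0.499% to 2.38% of counts in the passage 5 libraries, 5.37% to 20.9% at passage 6 and 1.66% to 10.1% at passage 10. The change with passage had a rank correlation across genes of 0.30 with transcript GC content in the Rspo1-negative group, 0.08 in the untreated and 0.06 in the Rspo1-positive group. The part of ribosomal reads and GC content in the results was not tested, beyond a fit with a GC and length offset that called 2148 genes. Passage cannot be told apart from culture batch or sort day, and all cultures came from 1 animal's line. With 1 library per group and passage, p-values set the mean change from passage 5 to 10 against how far the groups differ in their changes over passages 5, 6 and 10. The spread between separate cultures of 1 passage does not enter these p-values. The labels name 2 collection fluids, expansion medium and Trizol, without saying which library had which. In bulk RNA, a change in the share of cells of a type and a change in RNA per cell cannot be told apart.

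In what follows, the level of a gene is given as CPM, the gene's count relative to the library's size as scaled by TMM, and always in the order untreated, Rspo1-negative, Rspo1-positive, and fold changes are passage 10 relative to passage 5 on the log2 scale. Of the 151 genes under the naming rule that passed, 79 had an adjusted p under 0.01, and 72 of these passed without each of the 9 libraries in turn. Among the other 7 were Axin2, Sp5 and Reg3g, with adjusted p-values of 0.0503, 0.0565 and 0.0650 without the Rspo1-negative library of passage 5, Pgk1, with 0.0511 without the untreated library of passage 5, and Asns, with 0.0554 and 0.0622 without one or the other. None of the 72 genes with an adjusted p of 0.01 or more passed without every library, that is, each lost its call without at least 1 of them. The counts of called genes in each list stand beside 4.57% called higher and 4.5% called lower over all genes tested.

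The p53 targets had the lowest median of the lists with 10 or more tested genes. Of 30 tested genes of p53 response and senescence, 18 were lower at passage 10 and 0 higher, and 27 had a log2 fold change below 0; the median was -0.63, against 0.01 over all genes tested. By group, the median was -0.81 in untreated, -0.71 in Rspo1-negative and -0.40 in Rspo1-positive cells. Cdkn1a (chr17:29090976-29100727, GRCm38), which encodes the cell cycle inhibitor p21, stood at 279, 244 and 180.1 CPM at passage 5, 156, 160.2 and 121 at passage 6 and 58.7, 81.0 and 57.3 at passage 10. Every passage 10 library was below every passage 5 library, and passage 6 lay between them in each group (log2 fold change -1.83 ± 0.14 SE, adjusted p = 0.000273). Ccng1, a cyclin G gene induced by p53, went from 399, 317 and 329.6 to 119, 99.7 and 142 CPM, again without overlap (log2 fold change -1.54 ± 0.16 SE, adjusted p = 0.00048). Eda2r, a death receptor of the TNF family, went from 39.9, 29.8 and 38.2 to 8.55, 9.57 and 15.7 CPM (log2 fold change -1.70 ± 0.18 SE, adjusted p = 0.000598). Btg2, an antiproliferative gene, fell from 267, 209.6 and 249.97 to 87.4, 108 and 100.0 CPM (log2 fold change -1.30 ± 0.14 SE, adjusted p = 0.00064).

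Gdf15, a stress cytokine gene, was at 6.19, 8.3 and 10.2 CPM at passage 5 and 1.64, 3.35 and 4.51 at passage 10, again with no overlap (log2 fold change -1.47 ± 0.23 SE, adjusted p = 0.00385). Its passage 6 levels were 2.81, 8.35 and 9.58 CPM, so the fall between passages 5 and 6 was seen mainly in the untreated group. Among the others that fell were the mTORC1 inhibitor gene Sesn2 (-1.11, adjusted p = 0.00253), Trp53inp1 (-1.03, adjusted p = 0.00135), the translesion polymerase gene Polk (-1.01, adjusted p = 0.00513), and Phlda3, an Akt repressor (-0.99, adjusted p = 0.0042). The cell death genes Bbc3 (-0.94, adjusted p = 0.0109), Pmaip1 (-0.86, adjusted p = 0.0103) and Bax (-0.65, adjusted p = 0.0148) fell as well, as did Aen (-0.77, adjusted p = 0.0125), Zmat3 (-0.76, adjusted p = 0.00505) and Ei24 (-0.61, adjusted p = 0.0294). The smallest falls were those of Mdm2, the ubiquitin ligase that degrades p53 (-0.51, adjusted p = 0.0471), and of the death receptor gene Tnfrsf10b (-0.42, adjusted p = 0.0449). Trp53 itself was at 63.8, 87.2 and 96.7 CPM at passage 5 and 65.7, 83.2 and 89.8 at passage 10 (log2 fold change -0.04 ± 0.12 SE, adjusted p = 0.844). Cdkn2a, the locus of the senescence proteins p16 and p19ARF, was at 29.4, 37.1 and 24.4 and 23.5, 34.5 and 30.9 CPM (log2 fold change -0.04 ± 0.16 SE, adjusted p = 0.909). Without the untreated library of passage 5, 11 genes of the list were called lower, and 10 without the Rspo1-positive group.

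**Figure D2:**
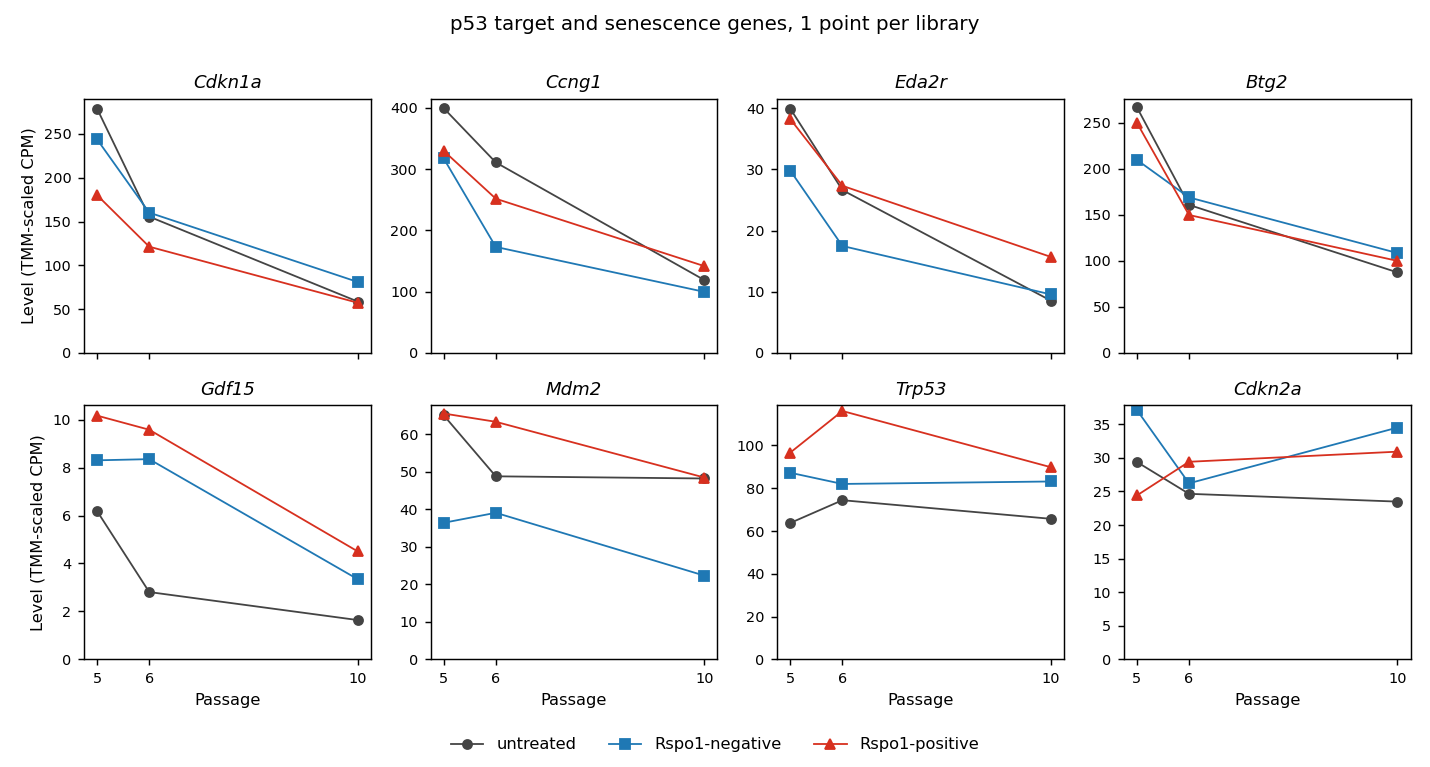
Levels in TMM-scaled CPM (y axis, from 0) of 8 genes of the p53 and senescence list against passage (x axis), with 1 point per library and 1 line per group. Cdkn1a, Ccng1, Eda2r and Btg2 are lowest at passage 10 in all groups, while the values of Trp53 and Cdkn2a at passages 5 and 10 overlap.

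Of 36 tested proliferation genes, 7 were higher at passage 10 and 2 lower, with a median of 0.30. Over all genes tested, 4.57% were called higher and 4.5% lower, so 2 falls of 36 are near the share of all genes. Mki67, the Ki-67 antigen of cycling cells, was at 9.79, 13.01 and 147 CPM at passage 5 and 25.0, 21.3 and 232 at passage 10, higher in each group although the groups differ far more from each other than the passages do (log2 fold change 0.91 ± 0.19 SE, adjusted p = 0.0146). Other genes of mitosis that rose were the B-type cyclin Ccnb2 (1.13, adjusted p = 0.0102), Cdc20 (0.89, adjusted p = 0.0156), Cenpf (0.81, adjusted p = 0.0135), Foxm1 (0.70, adjusted p = 0.0211), Birc5 (0.67, adjusted p = 0.0376) and Tpx2 (0.62, adjusted p = 0.0489). The 2 genes that fell, Mcm6 (-0.57, adjusted p = 0.0286) and Mcm4 (-0.53, adjusted p = 0.0304), encode subunits of the replicative helicase. At passage 6 the list stood higher than at passage 10: the median difference from passage 5 was 1.15, 0.69 and 0.78 in the 3 groups at passage 6, against 0.25, 0.40 and 0.27 at passage 10. Mki67 at passage 6 was at 21.5, 39.8 and 279.7 CPM. Against the mean of passages 5 and 6 the list's median was -0.14 and 0 genes were called higher. The 7 calls became 0 without the untreated or the Rspo1-negative library of passage 5, 2 without the untreated or the Rspo1-negative library of passage 10, 3 and 4 without the Rspo1-positive ones, and 12 without the untreated library of passage 6. They became 4 without the Rspo1-negative group and 0 without the Rspo1-positive group. The 2 falls became 7 without the untreated or the Rspo1-negative library of passage 6, 1 without the Rspo1-negative library of passage 10, and 0 without any other single library of passage 5 or 10 or either Rspo1 group.

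Glycolysis and hypoxia genes were lower at passage 10. Of 32 tested, 16 fell, 0 rose and 28 had a log2 fold change below 0, with a median of -0.51 and group medians of -0.73, -0.32 and -0.37. The promoters of 3 of these genes are shown because they carry the 5-base core of the HIF binding site, ACGTG, in capitals on either strand. They come from RefSeq (GRCm38.p6), are written 5′ to 3′ on the gene's strand and cover the 250 bases before the transcription start: Ankrd37 at chr8:45999851-46000100, minus strand; Car9 at chr4:43506776-43507025, plus strand; Pgk1 at chrX:106186850-106187099, plus strand.
Ankrd37: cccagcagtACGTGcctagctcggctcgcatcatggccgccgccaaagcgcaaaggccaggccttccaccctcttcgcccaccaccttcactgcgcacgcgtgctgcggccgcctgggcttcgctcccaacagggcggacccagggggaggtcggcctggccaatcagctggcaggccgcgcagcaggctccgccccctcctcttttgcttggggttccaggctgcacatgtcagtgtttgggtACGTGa
Car9: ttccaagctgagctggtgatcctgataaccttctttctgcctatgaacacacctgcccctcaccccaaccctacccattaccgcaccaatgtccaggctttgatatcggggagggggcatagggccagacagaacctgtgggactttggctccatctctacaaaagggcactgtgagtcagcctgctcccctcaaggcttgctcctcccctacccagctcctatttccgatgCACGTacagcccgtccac
Pgk1: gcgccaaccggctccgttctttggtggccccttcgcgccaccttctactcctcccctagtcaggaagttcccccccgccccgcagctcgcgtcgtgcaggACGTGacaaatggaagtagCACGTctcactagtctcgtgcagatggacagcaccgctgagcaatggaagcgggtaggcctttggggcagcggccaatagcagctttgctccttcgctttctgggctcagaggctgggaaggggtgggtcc
The core begins 241 and 6 bases before the start of Ankrd37, 18 before that of Car9 and 150 and 131 before that of Pgk1. Over windows of 300 bases, from 250 before to 50 after a start, it was found for 12 of the 14 genes of the list that fell and have an entry, for 28.5% of the tested genes with an entry and for 21.8% of all genes in the table. It was found for 29.9% of all genes called higher and 30.9% of all called lower, again among those with an entry. Hypoxia genes were chosen for this list, so a high share can follow from the choice. The list's genes that did not fall were not counted. A match of 5 letters is a description of the sequence, not a binding site.

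Hk2, the hexokinase that traps glucose in the cell, was at 107, 61.7 and 95.7 CPM at passage 5 and 32.7, 26.8 and 35.0 at passage 10, with no overlap (log2 fold change -1.46 ± 0.18 SE, adjusted p = 0.0011). P4ha1, a collagen prolyl hydroxylase subunit, went from 182, 157 and 112 to 65.8, 77.9 and 41.6 CPM (log2 fold change -1.30 ± 0.13 SE, adjusted p = 0.000335). Car9, a carbonic anhydrase that serves as a hypoxia marker, went from 174, 194 and 113 to 73.6, 112 and 41.3 CPM (log2 fold change -1.16 ± 0.15 SE, adjusted p = 0.00135). The passage 10 libraries were lowest in each group for these 3 genes. Adm, the vasodilator peptide adrenomedullin, had the largest fall of the list (-1.93, adjusted p = 0.00282). Ankrd37 (-1.18, adjusted p = 0.0025), which overlaps Lrp2bp on the opposite strand, the lactate exporter Slc16a3 (-0.91, adjusted p = 0.00142) and Ddit4 (-0.80, adjusted p = 0.0117) also fell. So did the glycolytic enzymes Pgk1 (-0.77, adjusted p = 0.00813), Pfkl (-0.52, adjusted p = 0.0362) and Pgam1 (-0.50, adjusted p = 0.0275), the glucose transporter Slc2a1 (-0.65, adjusted p = 0.012) and the HIF hydroxylase Egln3 (-0.69, adjusted p = 0.0174). Ndrg1 (-0.77, adjusted p = 0.0176), Mxi1 (-0.75, adjusted p = 0.00395), Ero1l (-0.68, adjusted p = 0.0188) and P4ha2 (-0.57, adjusted p = 0.0212) complete the 16. Ldha, lactate dehydrogenase A, was at 1458, 2296 and 1074 and 867, 1619.9 and 833 CPM and missed the threshold (-0.54, adjusted p = 0.0536). At passage 6 the group medians relative to passage 5 were already -0.48, -0.32 and -0.51. From passage 6 to 10 the median thus fell further in the untreated group only, and in the Rspo1-positive group it was lower at passage 6. Against the mean of passages 5 and 6, 10 genes were called lower and 1 higher, with a median of -0.27. The 16 calls became 7 and 8 without the untreated libraries of passages 5 and 10, 9 and 10 without the Rspo1-positive ones, and 6 without the Rspo1-positive group.

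Cholesterol genes moved the other way. Of 25 tested genes of cholesterol synthesis and its control, 11 rose, 0 fell and 24 had a log2 fold change above 0, with a median of 0.44 and group medians of 0.43, 0.51 and 0.45. Insig1, a sterol-regulated brake on SREBP processing, was at 155, 77.1 and 104 CPM at passage 5 and 259, 201 and 219.6 at passage 10 (log2 fold change 1.07 ± 0.16 SE, adjusted p = 0.00309). Lss, the enzyme that forms lanosterol, went from 225, 127 and 199 to 402, 225 and 303 CPM (log2 fold change 0.77 ± 0.16 SE, adjusted p = 0.0175). Fdps, which makes farnesyl diphosphate, went from 167, 218 and 174 to 288, 329.8 and 257 CPM (log2 fold change 0.65 ± 0.14 SE, adjusted p = 0.0179). The lowest passage 10 library was above the highest passage 5 library for Insig1 and Fdps, while for Lss the Rspo1-negative library of passage 10 and the untreated library of passage 5 were about level. The enzymes Hsd17b7 (0.88, adjusted p = 0.00563), Acat2 (0.56, adjusted p = 0.0101) and Nsdhl (0.41, adjusted p = 0.0498) rose too. So did the sterol carrier Stard4 (0.80, adjusted p = 0.00283) and Srebf2, which encodes SREBP2 (0.51, adjusted p = 0.0407). Sqle (0.35, adjusted p = 0.124) and Hmgcs1 (0.66, adjusted p = 0.0561) did not pass. At passage 6 these genes were below passage 5, with group medians of -0.50, -0.48 and -0.24. Lss, for example, was at 108, 91.7 and 153 CPM at passage 6. Against the mean of passages 5 and 6, 21 of the 25 genes were called higher, with a median of 0.71. The 11 calls became 5 and 6 without the untreated libraries of passages 5 and 10, 3 and 4 without the Rspo1-negative ones, 5 without the Rspo1-positive library of passage 5 and 18 without the untreated library of passage 6. They became 1 without the Rspo1-negative group and 3 without the Rspo1-positive group.

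**Figure D3:**
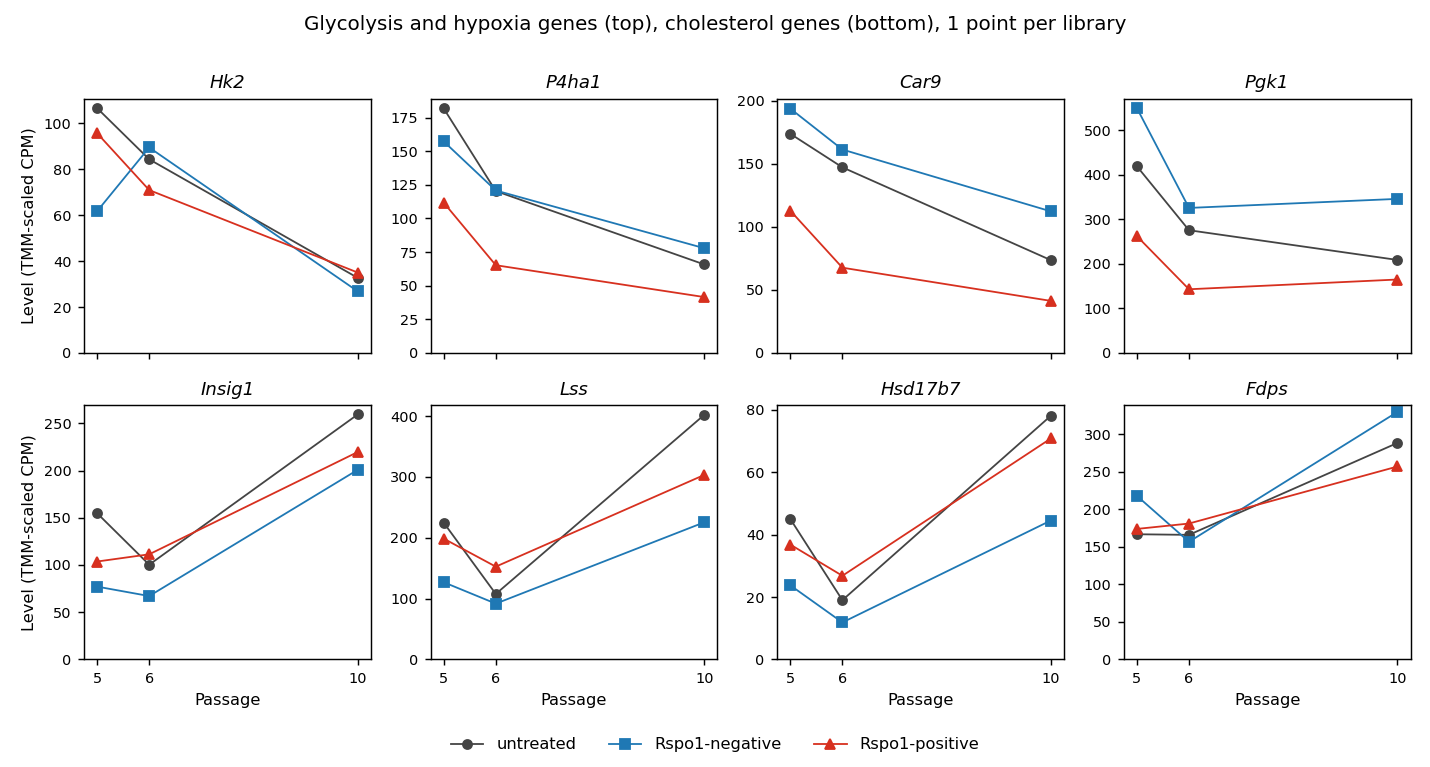
Levels in TMM-scaled CPM (y axis, from 0) of 4 glycolysis and hypoxia genes (top) and 4 cholesterol genes (bottom) against passage (x axis), 1 point per library. Hk2, P4ha1 and Car9 are lowest at passage 10 in each group, whereas Insig1, Lss, Hsd17b7 and Fdps are highest there.

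Chaperones of the heat shock response made up most of the falls in a mixed list. The 26 tested genes cover heat shock and the unfolded protein response of the endoplasmic reticulum, with 9 lower and 3 higher, and its median of 0.11 has the opposite sign to most of its calls. Of the 9 that fell, 8 are heat shock genes. The heat shock element, the binding pattern of HSF1, is written here as GAANNTTC and reads the same on both strands. It was found for 5 of the 6 that have an entry, 7.04% of the tested genes with an entry and 9.04% of all genes in the table, in the same 300-base windows. Among all genes called higher with an entry it was found for 6.69%, and among all called lower for 7.62%. The 8 genes were picked as heat shock genes, so a high share can follow from that choice. The 250 bases before the start are shown for a pair of them (RefSeq, GRCm38.p6; Hspa1a at chr17:34972157-34972406, minus strand; Hspd1 at chr1:55087933-55088182, minus strand), with the pattern in capitals, 104 bases before the start of Hspa1a and 139 before that of Hspd1.
Hspa1a: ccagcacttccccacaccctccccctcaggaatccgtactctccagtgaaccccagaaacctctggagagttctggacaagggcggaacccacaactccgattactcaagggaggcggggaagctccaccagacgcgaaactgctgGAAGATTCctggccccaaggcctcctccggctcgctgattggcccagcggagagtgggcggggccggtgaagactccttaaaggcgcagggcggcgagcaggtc
Hspd1: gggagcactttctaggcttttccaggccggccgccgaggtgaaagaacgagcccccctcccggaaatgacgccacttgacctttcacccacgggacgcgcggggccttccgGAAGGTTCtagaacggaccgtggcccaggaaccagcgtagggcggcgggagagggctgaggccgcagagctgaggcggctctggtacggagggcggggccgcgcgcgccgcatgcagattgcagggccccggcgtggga
Hsph1, a large co-chaperone of the HSP70 system, was at 201, 152 and 203 CPM at passage 5, 203, 166 and 181 at passage 6 and 70.6, 68.2 and 83.3 at passage 10, so the fall lay between passages 6 and 10 (log2 fold change -1.31 ± 0.12 SE, adjusted p = 0.000316). Hspa1a, the stress-inducible HSP70, went from 97.6, 55.2 and 44.7 to 41.6, 38.5 and 23.7 CPM (log2 fold change -0.90 ± 0.17 SE, adjusted p = 0.0107); it overlaps Gm20481 on the opposite strand. The mitochondrial chaperonin pair Hspd1 (-0.83, adjusted p = 0.00457) and Hspe1 (-0.69, adjusted p = 0.0108) fell, as did Hsp90aa1 (-0.95, adjusted p = 0.00398), Hspa8 (-0.64, adjusted p = 0.0368), Dnajb1 (-0.58, adjusted p = 0.0184) and Hspb1 (-0.49, adjusted p = 0.0445). Asparagine synthetase, Asns, was the ninth (-0.80, adjusted p = 0.0075). Atf4, a transcription factor of the stress response, rose from 254, 231 and 233 to 364, 372 and 357 CPM (log2 fold change 0.61 ± 0.14 SE, adjusted p = 0.0218). Manf (0.65, adjusted p = 0.0156) and Chac1 (1.04, adjusted p = 0.0284) rose too, while the ER chaperone Hspa5 missed the threshold (0.54, adjusted p = 0.0582). The 9 falls became 3 and 4 without the untreated libraries of passages 5 and 10, 4 without the Rspo1-negative and 5 without the Rspo1-positive library of passage 5. They became 3 without the Rspo1-negative group and 4 without the Rspo1-positive group, and the 3 rises became 0 without either group. Without single libraries, the 3 rises became 0 without the Rspo1-negative library of passage 5 or 10 or the Rspo1-positive library of passage 10, 1 without the untreated library of passage 5 or 10 or the Rspo1-positive library of passage 5, and 7 without the untreated library of passage 6.

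Immediate early genes, which respond within minutes to growth factors and to dissociation, were lower at passage 10 where they changed: 6 of 23 fell and 0 rose, with a median of -0.25. Fos was at 183, 170.4 and 582 CPM at passage 5, 73.1, 55.5 and 201 at passage 6 and 70.0, 82.7 and 293 at passage 10 (log2 fold change -1.13 ± 0.14 SE, adjusted p = 0.00135). The Rspo1-positive group was highest at every passage, so the passages overlap although each group fell. Egr1 (-1.41, adjusted p = 0.00285), Fosb (-1.55, adjusted p = 0.00669), Jun (-0.93, adjusted p = 0.0107), Klf2 (-1.73, adjusted p = 0.0133) and Zfp36 (-0.67, adjusted p = 0.0153) also fell. Against the mean of passages 5 and 6 only 1 gene was called lower, and the 6 calls became 3 without the Rspo1-positive library of passage 5 and 2 without the Rspo1-positive group.

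Genes that respond to glucocorticoids, to which all groups were exposed through dexamethasone, changed in both directions, with 6 of 13 lower and 2 higher and a median of -0.44. Zbtb16, a transcription factor induced by the glucocorticoid receptor, was at 8.52, 5.64 and 10.5 CPM at passage 5, 15.8, 14.6 and 10.5 at passage 6 and 2.53, 1.95 and 1.71 at passage 10 (log2 fold change -2.002 ± 0.26 SE, adjusted p = 0.00136). Only passage 10 was low, and no library there reached the lowest of passage 5. The metallothionein gene Mt2 went from 74.3, 63.9 and 46.9 to 16.5, 24.4 and 9.09 CPM (log2 fold change -1.96 ± 0.18 SE, adjusted p = 0.000316), and Mt1 from 131, 151 and 102 to 41.9, 71.1 and 43.0 CPM (log2 fold change -1.32 ± 0.13 SE, adjusted p = 0.000316). Metallothioneins also respond to zinc. The receptor co-chaperone Fkbp5 (-0.65, adjusted p = 0.0198), Pdk4 (-1.58, adjusted p = 0.00202) and Nfkbia (-0.53, adjusted p = 0.0168) fell, and Per1 (0.61, adjusted p = 0.0135) and Cebpb (0.64, adjusted p = 0.0365) rose. The 2 rises became 0 without the untreated library of passage 10, either Rspo1-negative library of passages 5 and 10, the Rspo1-positive library of passage 5 or either Rspo1 group, and 1 without the untreated library of passage 5 or the Rspo1-positive library of passage 10. The 6 falls numbered 4 to 7 without single libraries.

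Secretory genes of the stomach and intestine, some of which bile duct epithelium can also express, changed in both directions. Of 23 tested, 9 rose and 6 fell, with a median of 0.48. Among called genes with a mean log2 CPM above 2 that moved in 1 direction in all groups, Reg3b had the largest rise of a protein-coding gene. Reg3b (chr6:78370657-78373466), an antibacterial lectin, was at 1.72, 4.71 and 2.29 CPM at passage 5 and 27.5, 60.4 and 26.6 at passage 10 (log2 fold change 3.69 ± 0.40 SE, adjusted p = 0.00064). Its neighbour Reg3g, a similar lectin, rose from 0.277, 0.532 and 0.96 to 4.4, 3.43 and 2.91 CPM (log2 fold change 2.52 ± 0.45 SE, adjusted p = 0.00765). These 2 genes are close copies, and how the counting shared reads between them is not given in the sources used here. The mucin gene Muc13 rose from 17.0, 4.55 and 3.35 to 62.4, 14.4 and 12.3 CPM; the untreated group stood above the others, so the passages overlap (log2 fold change 1.82 ± 0.22 SE, adjusted p = 0.00127). Pgc, gastric pepsinogen C, went from 2.22, 24.6 and 23.0 to 8.69, 60.1 and 51.3 CPM (log2 fold change 1.40 ± 0.18 SE, adjusted p = 0.00133). Agr2 (1.07, adjusted p = 0.0156), Spink4 (1.07, adjusted p = 0.0146), the gel-forming mucin Muc5b (2.07, adjusted p = 0.00633) and the transcription factors Cdx2 (0.89, adjusted p = 0.0168) and Pdx1 (0.48, adjusted p = 0.047) rose too.

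The 6 genes of this list that fell include trefoil peptides and products of the gastric surface. Psca, a surface antigen, was at 96.5, 43.1 and 17.3 CPM at passage 5, 13.8, 5.97 and 2.29 at passage 6 and 21.3, 14.7 and 4.9 at passage 10, lowest at passage 6 in each group (log2 fold change -1.85 ± 0.15 SE, adjusted p = 0.000288). The trefoil peptide Tff1 went from 41.8, 15.6 and 10.2 to 16.7, 7.33 and 4.2 CPM (log2 fold change -1.23 ± 0.14 SE, adjusted p = 0.000769), and Tff3 from 513, 147 and 59.1 to 485, 48.9 and 17.4 CPM (log2 fold change -1.19 ± 0.31 SE, adjusted p = 0.0354). The falls of Tff3 were small in the untreated group. The protease gene Ctse (-1.01, adjusted p = 0.00495) and Vsig1 (-0.95, adjusted p = 0.00395) fell. Anxa10 was at 1.17, 0.532 and 0.394 CPM at passage 5 and 0.201, 0 and 0 at passage 10, with a count of 0 in both Rspo1 libraries of passage 10, which allows up to 3 counts in each. The 9 rises became 5 without the untreated library of passage 10 or the Rspo1-negative library of passage 5, 4 without the Rspo1-negative group and 5 without the Rspo1-positive group. The 6 falls became 3 without the Rspo1-negative group.

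**Figure D4:**
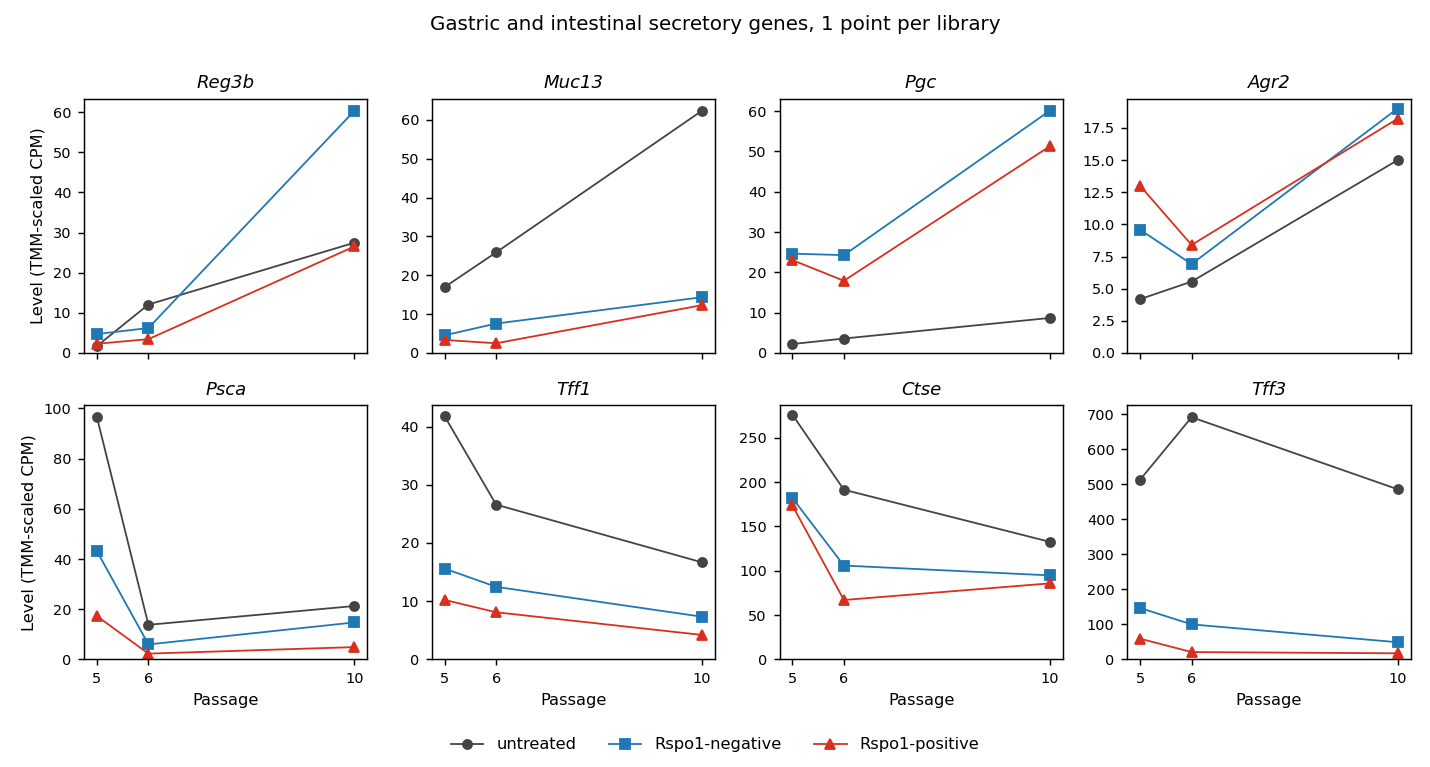
Levels in TMM-scaled CPM (y axis, from 0) of 8 gastric and intestinal secretory genes against passage (x axis), 1 point per library. Reg3b, Muc13, Pgc and Agr2 (top) are highest at passage 10 in each group, and Psca, Tff1, Ctse and Tff3 (bottom) are lower at passage 10 than at passage 5.

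Defining biliary markers were present at both passages. Krt19, a bile duct keratin, was at 3456, 3232 and 1617 CPM at passage 5 and 2711, 2333 and 1368 at passage 10 (-0.36, adjusted p = 0.185), and Krt7, another keratin of these cells, at 3520.2, 3639.6 and 2082 and 2357, 2748 and 1623 CPM (-0.45, adjusted p = 0.102). Epcam was at 567, 520.4 and 533 and 546, 612 and 591 CPM (0.11, adjusted p = 0.628). Of 31 tested biliary or progenitor genes, 3 rose and 1 fell, with a median of -0.01. Over all genes tested, 4.57% were called higher and 4.5% lower, so these few calls describe single genes and not the list. Aqp1, a water channel of the bile duct membrane, went from 16.6, 180.5 and 118 to 89.9, 476 and 307 CPM, and rose in each group from very different levels (log2 fold change 1.70 ± 0.21 SE, adjusted p = 0.00126). Sox9, a transcription factor of the biliary lineage, rose from 33.5, 84.7 and 109 to 74.0, 161 and 184 CPM (log2 fold change 0.93 ± 0.14 SE, adjusted p = 0.00292), and the ciliary gene Pkhd1 rose (0.77, adjusted p = 0.0133). Elf3, an epithelial transcription factor, fell from 487, 434 and 323 to 267, 274 and 191 CPM (log2 fold change -0.76 ± 0.15 SE, adjusted p = 0.0107). Without the untreated library of passage 6, 5 of these genes rose and 5 fell. The 1 fall became 0 without the untreated library of passage 10, the Rspo1-negative or the Rspo1-positive library of passage 5 or either Rspo1 group, 3 without the Rspo1-negative library of passage 6 and 2 without the untreated group.

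Those hepatocyte genes that could be tested changed in both directions. Of 43 in the list, 39 had a row and 17 passed the filter on low counts. Among those left out, Cps1, Otc, Cyp3a11, Hpd and Asgr1 had at most 1 count in every library. Of the 17 tested, 4 rose and 5 fell, with a median of -0.17. Alb, serum albumin, was at 9.05, 9.34 and 6.2 CPM at passage 5 and 14.5, 12.4 and 8.76 at passage 10 (0.52, adjusted p = 0.188). Fga, the fibrinogen alpha chain, went from 0.277, 0.586 and 0.517 to 5.32, 5.38 and 2.88 CPM (log2 fold change 3.17 ± 0.52 SE, adjusted p = 0.00483), and Fgb was at 0.0308, 0.106 and 0.197 and 4.63, 2.2 and 0.42 CPM. Haptoglobin, Hp (1.10, adjusted p = 0.0252), and Arg1 (0.61, adjusted p = 0.0486) rose. Ttr, transthyretin, went from 374, 534 and 306 to 149, 256 and 195 CPM (log2 fold change -0.99 ± 0.19 SE, adjusted p = 0.0103), and glutamine synthetase, Glul, from 413, 401 and 370.2 to 218, 248 and 176 CPM (log2 fold change -0.90 ± 0.21 SE, adjusted p = 0.0236). Apob (-1.76, adjusted p = 0.0351), Apoa1 (-1.69, adjusted p = 0.0483) and Gls2 (-0.95, adjusted p = 0.0403), all under 3 CPM, fell. The counts of 4 and 5 changed by more than 1.5 times without any single library of passage 5 or 10, with 1 to 2 rises and 0 to 2 falls left, and without the Rspo1-positive library of passage 6 the falls numbered 2; without the untreated library of passage 6 there were 7 rises. No hepatocyte gene was called without the Rspo1-negative group. Pck1, Cyp7a1, Cyp8b1 and Slco1b2 were not analysed here.

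Wnt target genes were mixed: 4 of 17 rose and 1 fell, with a median of 0.10. Axin2 (chr11:108920349-108950783), a feedback inhibitor of Wnt signalling and the locus of the CreERT2 allele, was at 1.32, 44.4 and 75.7 CPM at passage 5, 1.74, 97.4 and 88.7 at passage 6 and 5.96, 124 and 155 at passage 10 (log2 fold change 1.48 ± 0.24 SE, adjusted p = 0.00424). It was higher at passage 10 in each group, and the untreated libraries stayed far below all Rspo1 libraries. Sp5, a direct Wnt target, was at 0.523, 9.66 and 10.5 and 0.691, 31.2 and 31.6 CPM (log2 fold change 1.45 ± 0.23 SE, adjusted p = 0.00403), with little change in the untreated group. Myc went from 90.1, 84.2 and 127 to 159.7, 151 and 226 CPM without overlap (log2 fold change 0.83 ± 0.11 SE, adjusted p = 0.00142), and Tcf7 rose (0.88, adjusted p = 0.0235). Lgr5, an Rspo1 receptor and stem cell marker, went the other way, from 0.369, 3.03 and 5.64 to 0.173, 0.974 and 1.62 CPM, after 0.0669, 5.76 and 10.4 CPM at passage 6 (log2 fold change -1.67 ± 0.45 SE, adjusted p = 0.0424). The 4 rises became 1 without the Rspo1-negative library of passage 5 and 2 without either Rspo1 group, and the 1 fall became 4 without the untreated and 2 without the Rspo1-negative library of passage 6. The fall became 0 without any Rspo1-positive library, either Rspo1-negative library of passages 5 and 10, the untreated library of passage 5 or either Rspo1 group. Among 19 tested YAP targets, 2 rose, Ctgf (0.64, adjusted p = 0.0346) and Nuak2 (0.59, adjusted p = 0.0481), and 3 fell, Igfbp3 (-1.73, adjusted p = 0.00127), Axl (-1.25, adjusted p = 0.00617) and Gadd45b (-0.81, adjusted p = 0.00339). The 2 rises became 0 without the untreated library of passage 5, any of the 4 Rspo1 libraries of passages 5 and 10 or either Rspo1 group, 5 without the untreated library of passage 6 and 4 without the untreated group.

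Matrix and adhesion genes included one of the clearest falls. Nid1 (chr13:13437551-13512269), the basement membrane linker nidogen 1, was at 27.6, 6.57 and 12.7 CPM at passage 5, 12.1, 3.37 and 5.46 at passage 6 and 3.19, 1.48 and 1.99 at passage 10 (log2 fold change -2.69 ± 0.20 SE, adjusted p = 0.000213). Of 25 tested genes of the list, 5 fell and 2 rose, with a median of -0.19. Lama3, a laminin chain, fell from 152, 63.1 and 72.8 to 53.6, 29.3 and 27.8 CPM (log2 fold change -1.34 ± 0.12 SE, adjusted p = 0.000316). Fibronectin, Fn1, fell (-0.90, adjusted p = 0.0119), as did the collagen receptor Itga2 (-0.85, adjusted p = 0.00339) and Col12a1 (-1.16, adjusted p = 0.0491), while Lamb2 (0.53, adjusted p = 0.0334) and Col4a5 (0.51, adjusted p = 0.0417) rose. The 2 rises became 0 without any single library of passage 5 or 10 or either Rspo1 group, 1 without the Rspo1-positive library of passage 6 and 3 without the untreated one. The 5 falls became 3 without either untreated library of passages 5 and 10 or either Rspo1-positive one, 9 without the untreated and 8 without the Rspo1-negative library of passage 6, and 2 without the Rspo1-positive group.

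The 12 largest falls among genes with a mean log2 CPM above 2 included Nid1 and Zbtb16, whose values are given above. Cyp26b1 (chr6:84571414-84593908), which degrades retinoic acid, was at 52.7, 63.8 and 56.7 CPM at passage 5, 16.3, 22.9 and 9.31 at passage 6 and 8.03, 7.37 and 7.11 at passage 10, the largest of these 12 falls (log2 fold change -2.94 ± 0.22 SE, adjusted p = 0.000213). Padi2 (chr4:140906344-140952586), which converts arginine in proteins to citrulline, had the smallest adjusted p and went from 117, 50.2 and 42.4 to 17.3, 8.68 and 5.93 CPM (log2 fold change -2.72 ± 0.16 SE, adjusted p = 6.53e-05). Cybrd1, a ferric reductase, went from 40.7, 54.2 and 39.2 to 4.58, 11.6 and 6.55 CPM (log2 fold change -2.68 ± 0.23 SE, adjusted p = 0.000288). All 3 were below the passage 5 range already at passage 6 in at least the Rspo1-positive group. Nlrp6, an innate immune sensor of epithelia, held its level at passage 6 (6.09, 11.2 and 6.88 CPM) and was at 0.547, 1.86 and 1.37 CPM at passage 10, from 5.82, 9.37 and 7.68 at passage 5 (log2 fold change -2.67 ± 0.24 SE, adjusted p = 0.000305). The secreted regulator of chloride channels Clca1 (-2.49, adjusted p = 0.00135), the transporter Slc4a11 (-2.38, adjusted p = 0.00127), Inka2 (-2.31, adjusted p = 0.000288) and the inducible nitric oxide synthase Nos2 (-2.20, adjusted p = 0.00108) fell by more than 4-fold. Sytl2, a vesicle docking gene, fell (-2.10, adjusted p = 0.00135), as did Psapl1 (-2.04, adjusted p = 0.000316). Sema3e, a secreted guidance cue, was named as 1 of the 6 genes with the smallest p before adjustment and a mean log2 CPM above 2 (-1.54, adjusted p = 0.000288).

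The 12 largest rises among genes with a mean log2 CPM above 2, beside Reg3b, Muc13 and Aqp1, were a varied group. Atp6v1b1 (chr6:83742990-83758855), a subunit of the vacuolar proton pump, was at 0.585, 3.86 and 5.91 CPM at passage 5, 0.502, 5.84 and 3.74 at passage 6 and 7.77, 25.7 and 23.5 at passage 10 (log2 fold change 2.70 ± 0.32 SE, adjusted p = 0.0011). Sprr2a3, of a family of small proline-rich barrier proteins with near-identical copies, went from 11.3, 15.6 and 27.5 to 136, 74.0 and 126 CPM (log2 fold change 2.60 ± 0.28 SE, adjusted p = 0.00064). Wnt5b, a Wnt ligand, went from 0.985, 6.28 and 5.47 to 9.93, 29.6 and 21.5 CPM (log2 fold change 2.35 ± 0.29 SE, adjusted p = 0.00126). For all 3 the passage 10 libraries lay above every passage 5 library, and Wnt5b was intermediate at passage 6. Tifa, an adaptor of NF-kappaB signalling (1.88, adjusted p = 0.00108), the potassium channel Kcnj15 (1.87, adjusted p = 0.00295), Plch2 (1.71, adjusted p = 0.00202) and the ferritin receptor Scara5 (1.69, adjusted p = 0.00251) also rose. Gm29358 (1.71, adjusted p = 0.00307) overlaps Tmbim1 on the opposite strand. Gm23935, a gene model of the miRNA type, was at 4.59, 21.6 and 0.985 CPM at passage 5, 60.4, 3072 and 2986 at passage 6 and 122, 256 and 714 at passage 10 (log2 fold change 5.29 ± 1.12 SE, adjusted p = 0.0163). Its highest libraries, the Rspo1 groups at passage 6 and the Rspo1-positive group at passage 10, are those with the most ribosomal RNA reads; their part in its rise was not tested.

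Several lists showed few or no calls. Of 40 tested interferon and antigen presentation genes, 1 fell, Oasl1 (-0.80, adjusted p = 0.0441), and 0 rose, with a median of -0.02; without single libraries, up to 4 rose (without the untreated library of passage 6) and up to 2 fell, while 0 fell without 6 of the 9 libraries. Of 27 tested imprinted genes, which are expressed from 1 parental allele, the noncoding RNA gene Meg3 rose from 1.05, 0.346 and 0.394 to 9.1, 3.64 and 1.46 CPM (log2 fold change 2.85 ± 0.36 SE, adjusted p = 0.00135) and the signalling adaptor Grb10 fell (-1.69, adjusted p = 0.0122); the fall was not called without the Rspo1-negative library of passage 5 or of passage 10. None of the 4 Y-linked and the 8 mitochondrially encoded genes tested was called by edgeR or DESeq2, and 0 and 1 of them had an unadjusted p under 0.05 in edgeR. Of markers of other cell types, 1 of 2 tested fibroblast or stellate genes fell, Reln (-1.88, adjusted p = 0.00155), and the other was not called (log2 fold change 0.77). The list's summed level, in which Reln itself was the leading gene, was 18.7 to 46.4 CPM at passage 5 and 6.97 to 19.4 at passage 10. Col1a2, Des, Lum and Pdgfra had at most 3 counts in every library. The leukocyte list summed to 51.9 to 68.1 CPM at passage 5 and 54.1 to 64.5 at passage 10, nearly all from Csf1r and Cd68. Ptprc and Cd3e had at most 5 counts in any library, Lyz2 at most 4 and Cd79a at most 3. Cd68, also a lysosomal gene, fell from 22.2, 23.0 and 11.4 to 8.2, 7.54 and 5.34 CPM (log2 fold change -1.39 ± 0.17 SE, adjusted p = 0.00108), and Csf1r did not pass (0.36, adjusted p = 0.0715). Endothelial markers summed to under 1 CPM in each passage 5 and 10 library, and Cdh5, Clec4g, Erg and Stab2 had at most 3 counts. Tuft cell markers summed to 27.6 to 79.8 CPM and 48.3 to 87.2 CPM, with 0 of 5 called by either tool and 2 at an unadjusted p under 0.05 in edgeR, and mesothelial ones, mostly Msln, to 950 to 1491 and 960 to 1548 CPM, with 0 of 3 called and 2 at an unadjusted p under 0.05. Foxj1, the regulator of motile cilia, fell from 115, 89.4 and 61.9 to 48.0, 41.8 and 23.4 CPM (log2 fold change -1.25 ± 0.12 SE, adjusted p = 0.000394), and the other 3 tested ciliated cell genes were not called. Neuroendocrine markers summed to 0.346 to 0.665 CPM and 0.616 to 2.53 CPM. The part of other cell types in the results above was not tested.

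**Figure D5:**
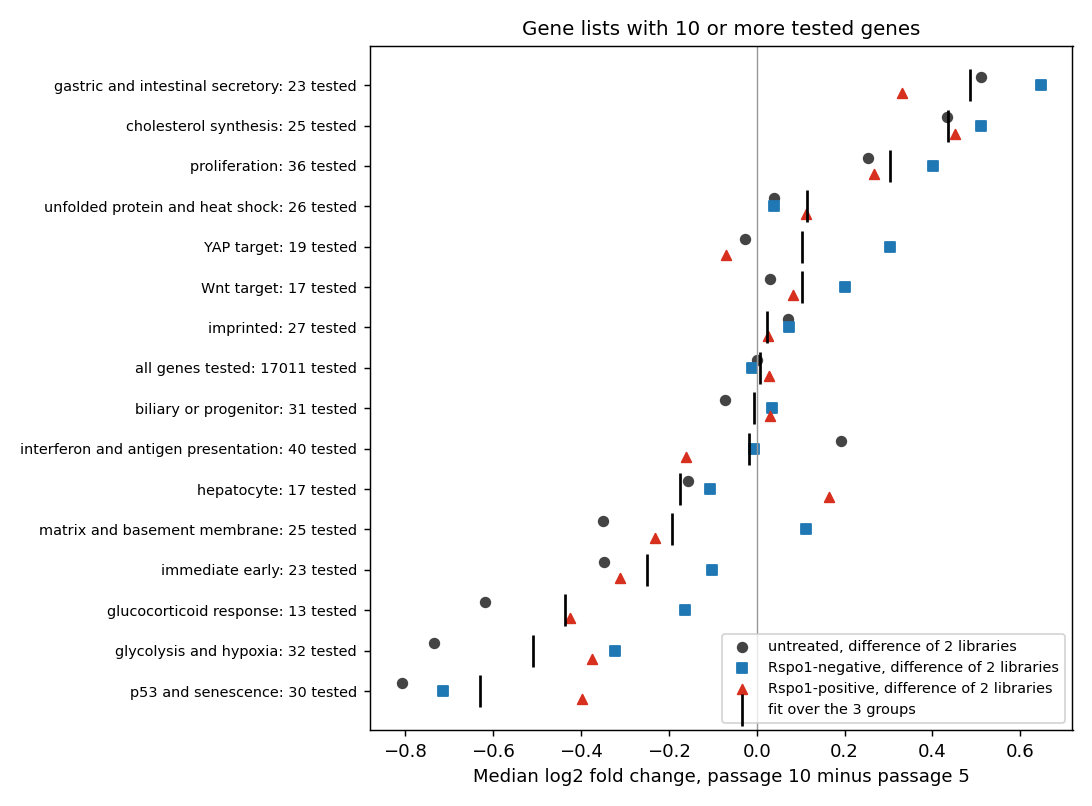
Median log2 fold change of passage 10 against passage 5 (x axis) for each list with 10 or more tested genes (y axis), with 1 marker per group and a black bar for the fit over the 3 groups. The medians of the p53, glycolysis and hypoxia, glucocorticoid and immediate early lists are below 0 in all groups, those of the cholesterol, secretory and proliferation lists are above 0, and that of all genes is 0.01.

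By chromosome, the median log2 fold change lay between -0.09 (X) and 0.06 (15) on the autosomes and X, with no large shift of a whole chromosome. Chromosome 15 had 8.10% of its 704 tested genes called higher, against 4.57% of all genes, and group medians of 0.04, 0.08 and 0.09. The 19 tested genes of the mitochondrial genome had a median of -0.52, with 0 called by edgeR, 5 at an unadjusted p under 0.05 and 1 called by DESeq2. In the promoter windows, the letters TATAAA, on either strand, were in 9.45% of the genes called higher, 12.2% of those called lower and 9.01% of all tested, counting the 11307 of 17011 tested genes with an entry in the RefSeq table. A CpG ratio under 0.6 in every window of a gene, that is few CpG pairs for its C and G content, was found in 37.4%, 33.6% and 28.4%.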

How the data were processed

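RNA of sorted organoid cells was sequenced as single-end 75 bp reads from 100 ng of total RNA, per the labels' protocols. The authors deposited, for each of 9 libraries, raw counts per gene and FPKM per gene, per the file headers, for 32137 genes; the FPKM entered no test. The submitters' processing notes name Trimmomatic 0.35, FastQC 0.11.2, STAR 2.5.1b, featureCounts, DESeq2 and GRCm38, without their order; the strand setting is not given in the sources used here, so a gene and one overlapping it on the other strand may share reads. The authors' group comparisons were not used.

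Counts were analysed with edgeR 4.0.16 in R 4.3.3. Genes were kept by filterByExpr (minimum count 10, minimum total 15), and TMM factors scaled the libraries. Group and passage were fitted to all 9 libraries, with 4 residual degrees of freedom. Passage 10 minus passage 5 was tested by edgeR's quasi-likelihood method; p-values were adjusted by Benjamini-Hochberg for 17011 genes and called under 0.05. The standard error is the log2 fold change divided by the square root of F. A second fit tested group by linear passage. Per-group differences used log2 CPM with a prior count of 2.

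Gene positions came from GENCODE M21 (32116 of 32137 genes matched), and promoters from RefSeq. The 24 lists, the promoter patterns and the comparison were chosen with earlier results of these data known, so a list's count is no independent evidence of its direction, and lists were described by counts and medians, without a set test. Of 524 list genes, 503 had a row and 414 were tested; those without a row were not analysed here, and a few list genes enter the counts but are not reported here by name. Named are the 12 largest rises and 12 largest falls among called genes with a mean log2 CPM above 2 that moved in 1 direction in all groups. Also named are the 6 genes with the smallest p before adjustment and a mean log2 CPM above 2, and genes of the lists. Alternatives were other scalings (RLE, upper quartile), no filter, DESeq2 1.42.0, the 6 libraries alone, no group term, a GC and length offset, passage 10 against passages 5 and 6, and leaving out each library or group. Read counts bound the precision of weakly expressed genes; for others the spread between libraries is the limit. Figures used Python 3.11.15.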

Additional observations from a re-analysis of the deposited data

How the results depend on the processing

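The 1543 calls (777 higher, 766 lower) became 1598 with RLE scaling, 1561 with upper-quartile scaling and 2148 with the GC and length offset. They became 2784 without the filter (1357 higher, 1427 lower), 4290 with the 6 libraries of passages 5 and 10 only (1909 and 2381) and 17 without the group term (5 and 12). DESeq2 called 2151, of which 1206 were lower, and passage 10 against passages 5 and 6 called 2011. Leaving out each library gave 405 to 3594 calls, with 158 to 1920 higher and 247 to 1674 lower. Without the Rspo1-negative group 370 were called (135 and 235), and without the Rspo1-positive group 318 (135 and 183); leaving out groups was added after the data were seen. The interaction test gave 10 calls without the filter and 0 under the other alternatives run. The causes were not tested. The median log2 fold change of all genes lay between -0.04 and 0.02 under every setting.

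List medians moved by more than the SD of the 3 group medians in these cases. Against passages 5 and 6, the median was -0.14 for proliferation, 0.30 for secretory genes, -0.23 for interferon, 0.0698 for imprinted, 0.71 for cholesterol, -0.27 for glycolysis and hypoxia, -0.12 for immediate early and -0.0151 for unfolded protein and heat shock genes. With the 6 libraries only it was -0.0248 for imprinted, 0.39 for cholesterol and 0.0699 for unfolded protein and heat shock genes. The imprinted median was -0.0045 with RLE scaling and with DESeq2, -0.0103 without the filter, 0.0732 without the group term, -0.0282 without the Rspo1-negative group and 0.073 without the Rspo1-positive group. Without the Rspo1-negative group the proliferation median was 0.22, and without the untreated group those of biliary and cholesterol genes were 0.0738 and 0.48. Leaving out single libraries gave medians of 0.083 to 0.44 for proliferation, -0.0566 to 0.0576 for biliary, -0.31 to 0.004 for hepatocyte, -0.0345 to 0.18 for Wnt target, -0.20 to 0.058 for interferon, -0.11 to 0.0629 for imprinted, 0.37 to 0.51 for cholesterol and 0.0499 to 0.15 for unfolded protein and heat shock genes.

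Of 151 named genes that were called, 72 kept the call without each library in turn and 79 lost it without 1 to 8 of the 9 libraries, with no change of sign. In the other alternatives, the sign changed for Tpx2 (-0.0632) and Epcam (-0.0196) against passages 5 and 6. Cdkn2a changed to 0.0468 in that setting and to 0.11 without the untreated group. Leaving out 1 library gave Cdkn2a -0.2297 to 0.0832 and Trp53 -0.1248 to 0.0163. No paired analysis was possible because the replicate number is the passage itself, the factor compared, so that no replicate block can be added to it.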

Other observations

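Genes of the circadian clock and of retinoid metabolism were listed after their values were seen, so their counts are descriptions without a test of the list. Of 18 tested clock genes, 6 were higher at passage 10 and 1 was lower, with a median log2 fold change of 0.34. Over all genes tested, 4.57% were called higher and 4.5% lower. Dbp, an output gene of the clock, was at 20.1, 21.8 and 11.5 CPM at passage 5 and 49.1, 60.5 and 25.7 at passage 10, in the order untreated, Rspo1-negative, Rspo1-positive (log2 fold change 1.30 ± 0.14 SE, adjusted p = 0.000516); it overlaps Sphk2 on the opposite strand. Nr1d1, a repressor of the clock, went from 53.7, 47.5 and 37.1 to 100.4, 86.4 and 65.5 CPM (log2 fold change 0.86 ± 0.13 SE, adjusted p = 0.00303). Ciart (0.75, adjusted p = 0.0204), Cry2 (0.64, adjusted p = 0.0255), Tef (0.48, adjusted p = 0.041) and Per1 (0.61, adjusted p = 0.0135) were also higher, Nfil3 was lower (-0.71, adjusted p = 0.0117), and the core activator Arntl did not pass (0.13, adjusted p = 0.627). At passage 6, Dbp and Nr1d1 were above passage 5 in each group, Ciart, Cry2 and Tef were below it in each group, and Per1 was mixed. Ciart, for example, was at 6.62, 5.7 and 3.74 CPM at passage 5 and 2.91, 3.25 and 2.13 at passage 6. With each of the 9 libraries left out in turn, Per1 lost its call without 5 of them, and the other clock genes are not reported here in this setting. The hour of collection was not analysed here.

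Of 13 tested retinoid genes, 3 were lower and 0 higher by edgeR, against 4.5% and 4.57% over all genes tested, and the list's median was -0.09. Beside Cyp26b1, the genes called lower were Rbp2, a cellular retinol binding protein, which went from 41.3, 33.6 and 15.8 to 14.1, 14.99 and 6.49 CPM (log2 fold change -1.33 ± 0.15 SE, adjusted p = 0.000747), and Aldh1a1, which makes retinoic acid, from 201, 211 and 127 to 77.7, 96.1 and 62.7 CPM (log2 fold change -1.17 ± 0.15 SE, adjusted p = 0.00135). Both were without overlap between the passages, and at passage 6 they stood at 23.3, 17.4 and 6.98 and 124, 105 and 57.4 CPM.

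In 511 overlapping stretches of 40 neighbouring protein-coding genes with a mean log2 CPM above 2, the stretch on chromosome 15 from Mapk11 to Asb8 (chr15:89142486-98165625, GRCm38) ranked first when stretches were ordered by the smallest of the 3 groups' medians. Its medians were 0.22, 0.24 and 0.19 at passage 10 against 5, and -0.10, 0.06 and -0.04 at passage 6 against 5, with 29 of 40 genes above 0. A further stretch of the same chromosome, from Tfcp2 to Calcoco1 (chr15:100498012-102722178), had medians of 0.23, 0.27 and 0.19, and one at the end of chromosome 2, from Zfp970 to Polr3k (chr2:177464733-181870830), had 0.25, 0.38 and 0.19. The chromosome 2 stretch had the larger median in the fit over all groups, 0.26 against 0.22 for Mapk11 to Asb8. These stretches were picked for their values, and 248 of the 511 had 1 sign in all groups.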
